A study of Homo sapiens with 3 samples.

Results

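ETS1 binding in SCC25 cells was examined at 10 genes for cytokines and chemokines that tumor cells secrete, namely CXCL1, CXCL2, CXCL3, CXCL8, IL1A, IL1B, IL1RN, IL6, LIF and CSF2. They were a named list of 10 among 20144 protein-coding genes annotated on hg19, and the list is defined by names without a measured value. A peak was assigned to a gene when its midpoint lay in the gene body or within 100 kb of it, which gave 59 distinct peaks among 26961 on the nuclear chromosomes. SCC25 is an established tongue cancer line that serves as a mesenchymal model of head and neck squamous cell carcinoma. The cells carried no treatment in the labels. The 3 ChIP-Seq samples comprised 2 precipitations with the C20 antibody against ETS1 and 1 with the 501A antibody, and they were merged by the authors into 1 list of reproducible peak positions. The list carries no height, score, read count or value for a single sample, so counts of peaks are given without a replicate error and no difference could be tested over samples. One line was used, and no control condition is part of the list.

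ETS1 is a transcription factor of the ETS family, whose members recognize DNA with the core GGAA. CXCL1, CXCL2, CXCL3 and CXCL8 are CXC chemokines that attract neutrophils through receptors that include CXCR2. IL1A and IL1B are the ligands that start signaling by the interleukin 1 receptor, which the secreted antagonist encoded by IL1RN blocks. IL6 and LIF signal through receptor complexes that contain gp130, and CSF2 (GM-CSF) drives the growth and activation of myeloid cells. In squamous carcinomas these factors are best known for shaping inflammation, and NF-kB and AP-1 are the classical inducers of many of them.

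All 10 genes had at least 1 ETS1 peak in the body or within 100 kb, where 87.6% of all protein-coding genes had one, so that presence alone did not set the genes apart. The number of peaks ranged from 1 at CXCL1 and CXCL8 to 16 at LIF. IL1A and IL1B had 14 peaks each, IL1RN 12, CSF2 5, CXCL2 4, and CXCL3 and IL6 3 each. The median was 4.5 peaks, beside 4 for all protein-coding genes. The genes thus fell into a group with few peaks, made of the chemokines, IL6 and CSF2, and a group with 12 or more, made of LIF and the 3 genes of the interleukin 1 family. A count of 12 or more was reached by 4 of the 10 genes and by 11.7% of all protein-coding genes. The limit of 12 was read from these same counts, as the lowest of the upper group, so this comparison is only descriptive. These 4 do not count as separate loci, since IL1A and IL1B shared 11 peaks. The limit of 100 kb fell close to peaks at IL1B, where the farthest peak inside lay 99543 bp and the nearest outside 103841 bp from the gene body, and at IL1RN, where the nearest outside lay 101439 bp from it.

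**Figure D1:**
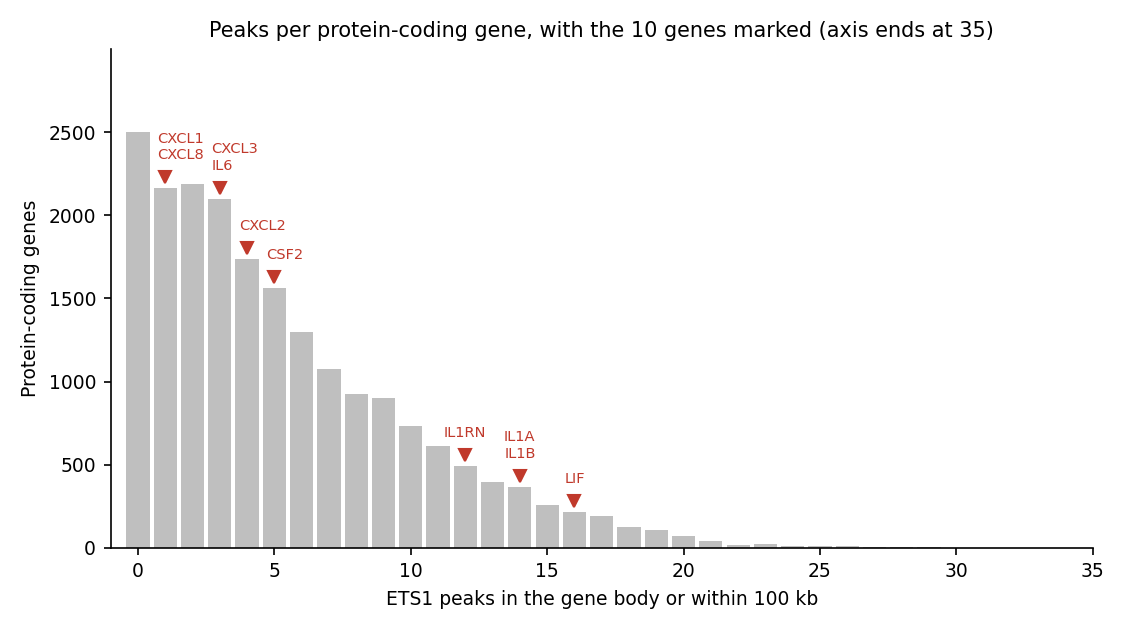
Number of protein-coding genes (vertical axis) by the number of ETS1 peaks in the gene body or within 100 kb (horizontal axis), with triangles at the counts of the 10 genes. CXCL1 and CXCL8 (1 peak), CXCL3 and IL6 (3), CXCL2 (4) and CSF2 (5) lie in the bulk of the genes, and IL1RN (12), IL1A and IL1B (14) and LIF (16) lie in the upper tail.

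At the transcription start sites (TSSs) the genes were divided evenly. A peak midpoint lay within 500 bp of an annotated TSS at 5 of the 10 genes, namely CXCL1, CXCL2, IL1RN, IL6 and LIF, beside 53.1% of all protein-coding genes. Counting any peak that reached into the 500 bp added CSF2, giving 6 genes beside 57.4% of all. CXCL3, CXCL8, IL1A, IL1B and CSF2 had peaks within 100 kb but no midpoint at a TSS, a state found in 34.5% of all protein-coding genes. A midpoint in the gene body was found at 4 of the 10 genes (IL1RN, IL6, CSF2 and LIF) and at 53.5% of all. These shares lay close to those of all genes or below them, apart from the share of genes with peaks only away from a TSS. That share is not a separate result. All 10 genes had a peak within 100 kb, so it only counts the genes without a midpoint at a TSS.

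**Figure D2:**
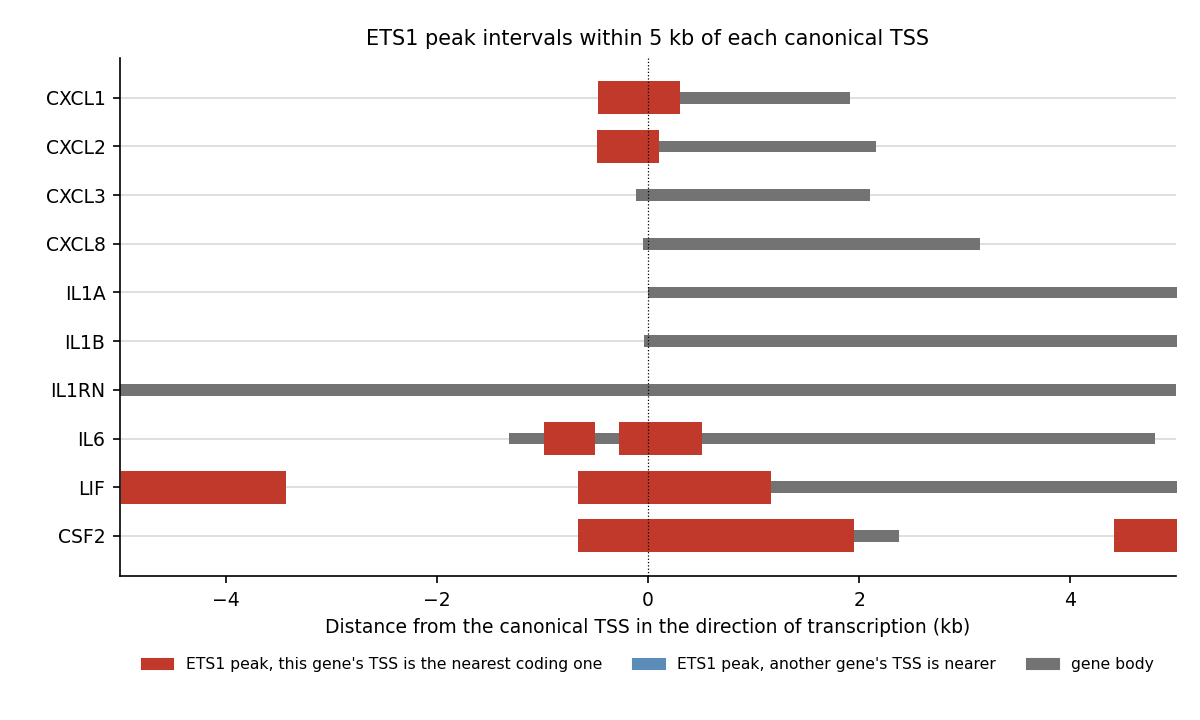
Intervals of the ETS1 peaks (tall bars, to scale) within 5 kb of the canonical TSS of each gene, with the gene body as a thin grey bar and the direction of transcription to the right. Peaks cover the TSS of CXCL1, CXCL2, IL6, LIF and CSF2, and none lies within 5 kb of the canonical TSS of CXCL3, CXCL8, IL1A, IL1B or IL1RN.

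The promoters of the 3 closely related chemokine genes are shown because 2 of them held a peak and the other did not. The bases before the canonical TSS are given on the strand of the gene, from GRCh37 (hg19), with every match to an ETS site in capitals. The sites searched, on both strands, were the ETS core AGGAAA or AGGAAG and the second form CCGGAA. CXCL1 lies at chr4:74734910-74735109 on the plus strand, CXCL2 at chr4:74964913-74965112 and CXCL3 at chr4:74904407-74904606, both on the minus strand.
CXCL1: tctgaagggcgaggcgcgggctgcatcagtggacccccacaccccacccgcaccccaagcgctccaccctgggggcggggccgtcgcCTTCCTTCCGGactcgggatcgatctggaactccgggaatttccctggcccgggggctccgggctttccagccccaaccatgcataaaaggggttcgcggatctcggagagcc
CXCL2: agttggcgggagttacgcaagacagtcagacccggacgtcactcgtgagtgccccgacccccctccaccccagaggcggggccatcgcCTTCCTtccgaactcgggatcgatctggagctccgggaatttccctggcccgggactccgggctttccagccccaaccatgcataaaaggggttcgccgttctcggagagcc
CXCL3: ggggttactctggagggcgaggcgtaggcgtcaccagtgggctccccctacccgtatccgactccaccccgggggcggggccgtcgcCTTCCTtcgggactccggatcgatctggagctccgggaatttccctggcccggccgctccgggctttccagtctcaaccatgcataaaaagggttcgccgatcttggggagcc
In a pairwise alignment CXCL1 and CXCL3 had 168 identical bases of 200, and CXCL2 had 160 in common with each of them. Each promoter held 1 ETS core, whose first base lay 113 bases before the TSS in CXCL1 and CXCL3 and 112 bases before it in CXCL2. Each also held the NF-kB consensus, in overlapping matches on both strands, 79 and 78 bases before the TSS in CXCL1 and CXCL3 and 78 and 77 in CXCL2. CCGGAA was present in CXCL1 alone among the 3, starting 108 bases before the TSS and overlapping the ETS core. Of the 19862 protein-coding promoters with the same 200 bases at hand, 35.3% held the ETS core, 17.4% CCGGAA, 4.82% the NF-kB consensus and 3.73% the AP-1 site TGANTCA. The NF-kB consensus can share bases with the ETS core at either end, which was not the case in these 3 promoters.

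CXCL1, a neutrophil chemokine also known as GRO-alpha, had a single peak within 100 kb. It spanned chr4:74734636-74735410 (775 bp), covered the TSS and had its midpoint 87 bp before it. The ETS core and the NF-kB matches shown above lay inside the peak.

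CXCL2, a neutrophil chemokine of the same receptor, had 4 peaks, all on its upstream side. The first spanned chr4:74964805-74965396 (592 bp), covered the TSS and had its midpoint 188 bp before it. This midpoint was also 20 bp from the TSS of the noncoding gene ENSG00000289241, so the peak lay at more than 1 start site. A pair of further peaks of 518 bp and 672 bp lay 10460 bp and 13217 bp upstream, and the nearest canonical coding TSS to both was that of CXCL2. Over all annotated transcripts, however, a TSS of MTHFD2L was nearer to both, at 4519 bp and 1762 bp. The peak at 10460 bp held 2 ETS cores in the central 600 bp, and the peak at 13217 bp held none and 1 CCGGAA. The last peak, 58881 bp upstream, lay at the promoter of MTHFD2L, a mitochondrial folate enzyme gene, with its midpoint 42 bp before the canonical TSS.

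CXCL3, the neutrophil chemokine gene next to CXCL2, had 3 peaks, each of which was also a peak of CXCL2 and nearer to that gene. The nearest lay 60694 bp from the canonical TSS. No peak therefore reached the ETS core printed above, although the same core lay in a peak at CXCL1 and at CXCL2. The similarity of the promoters bears on this comparison, because the authors kept only reads of 50 bases that mapped to a single place. Of 952 words of 50 bases within 500 bp of the canonical TSS, 135 (14.2%) at CXCL3, 131 (13.8%) at CXCL2 and 8 (0.84%) at CXCL1 had an exact copy elsewhere in the genome. With up to 2 mismatches, 251 words (26.4%) at CXCL3, 310 (32.6%) at CXCL2 and 187 (19.6%) at CXCL1 matched the promoter of another of the 10 genes. The other 7 genes had 0 such words. CXCL2 had a peak with a share of repeated words as high as that of CXCL3, and the part of read mapping in the absence of a peak at CXCL3 was not tested.

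CXCL8 (interleukin 8), a major neutrophil attractant, had 1 peak, 65870 bp upstream of its canonical TSS. That peak was 535 bp wide, and the nearest canonical coding TSS was that of RASSF6, a gene of the Ras association domain family. The promoter is shown because it held ETS cores and an AP-1 site without a peak, at chr4:74606086-74606235 on the plus strand, ending where the nearest annotated UTR begins.
CXCL8: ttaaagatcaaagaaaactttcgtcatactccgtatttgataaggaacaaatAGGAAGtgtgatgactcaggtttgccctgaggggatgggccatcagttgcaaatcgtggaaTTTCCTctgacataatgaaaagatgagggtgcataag
The ETS cores began 148 and 87 bases before the canonical TSS and the AP-1 site 137 bases before it. The NF-kB consensus in the strict form searched had no match before this TSS. Looser forms, which can share bases with an ETS core, were not searched. None of the words of 50 bases around this TSS had an exact copy elsewhere in the genome, beside 14.2% of those at CXCL3.

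The CXCL cluster as a whole, from CXCL8 to CXCL2 on chromosome 4, spans chr4:74606236-74964913 (359 kb) and holds 10 protein-coding genes. Its interior held 1 peak, that of CXCL1, or 2 when the CXCL2 peak that reaches across the border was counted. With 100 kb on each side the count was 6. The other genes of the cluster were no richer. CXCL6 and PF4V1 had the CXCL1 peak within 100 kb and no other, while PF4, PPBP, CXCL5 and ENSG00000288796 had 0 peaks. The distance between the peaks of CXCL1 and CXCL2 was 230077 bp. Windows of the same length laid end to end over the genome held a mean of 3.36 peaks and a median of 1, and 63.5% of 8000 such windows held at least 1. On chromosome 4 the mean was 1.17 per window, since this chromosome carried 3.26 peaks per Mb beside 9.43 in the nuclear genome. Inside its borders the chemokine cluster held 2.79 peaks per Mb, near the value of its chromosome, and with 100 kb on each side 10.7 per Mb, above it. Peaks lay at 2 of the 4 promoters.

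The interleukin 1 cluster gave the opposite picture. From IL1A to IL1RN on chromosome 2 it spans chr2:113531502-113891593 (360 kb), with 9 protein-coding genes, and it held 19 peaks, or 29 with 100 kb on each side. The density inside was 52.8 peaks per Mb, beside 8.61 on chromosome 2. Windows of this length held a mean of 3.38 peaks over the genome and 3.09 on chromosome 2, and 1.82% of 7965 windows held 19 or more. Both clusters are of nearly the same length and hold paralogous inflammatory genes, yet the count was 19 in one and 1 in the other.

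**Figure D3:**
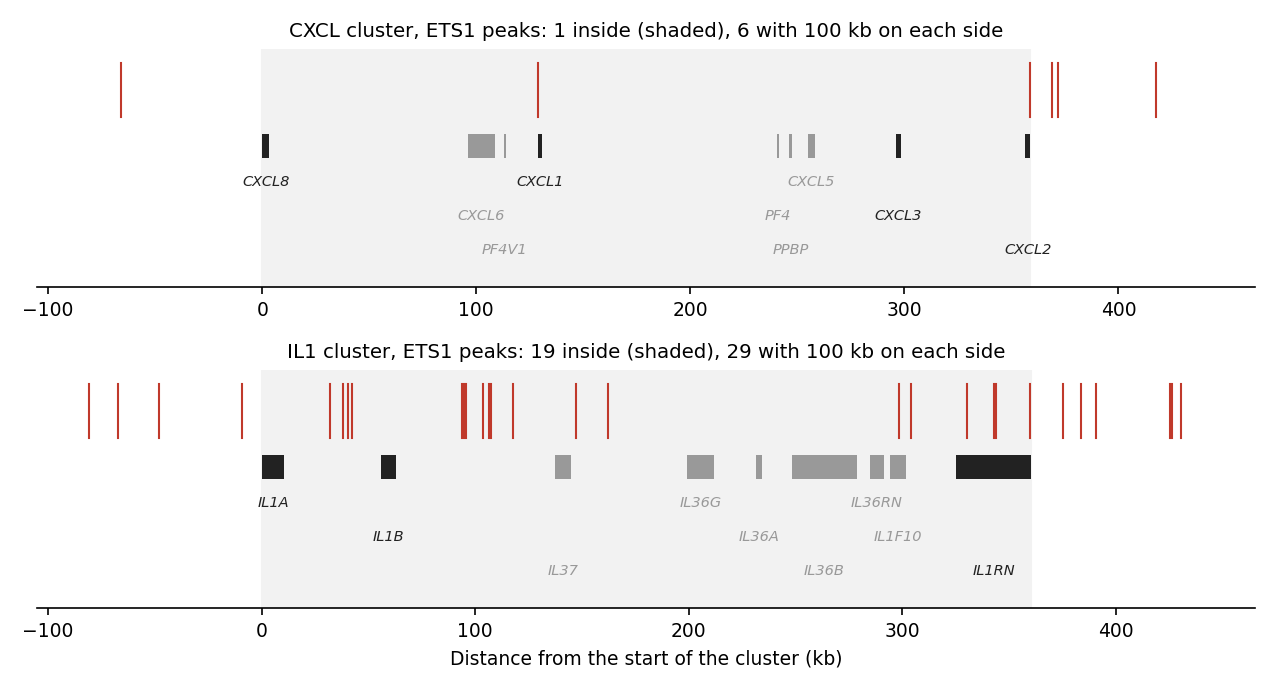
ETS1 peak midpoints (upper ticks) and coding genes (boxes, the 10 genes in black and others in grey) along the CXCL and IL1 clusters, with distance in kb from the start of each cluster and the cluster shaded. ENSG00000288796, which overlaps PPBP, is left out. The CXCL cluster shows 1 peak inside, at CXCL1, and the IL1 cluster shows 19, with an empty stretch from IL36G to IL36RN.

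IL1A, the interleukin 1 ligand that acts as an alarm signal of damaged epithelium, had no peak within 500 bp of its TSS and none in its body. The nearest peak lay 19958 bp downstream, at the promoter of CKAP2L, a spindle protein gene, with the midpoint 74 bp from that TSS. IL1B, the secreted ligand made from a precursor cut by caspase 1, likewise had no peak at its TSSs or in its body, and its nearest peak lay 20686 bp downstream of the canonical TSS. Words of 50 bases at both promoters had no copy elsewhere. The 200 bases before the TSS held no ETS core in IL1A and 1 in IL1B, which began 106 bases before the TSS.

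The peaks of these 2 genes were instead grouped between and beside them. In the intergenic stretch between IL1A and IL1B 4 peaks lay within chr2:113563139-113573827, a span of 10.7 kb. Their midpoints were 21.3, 27.4, 30 and 31.6 kb upstream of the TSS of IL1A. The nearest canonical coding TSS was that of IL1A for the first and that of IL1B for the other 3, which lay beyond the 3′ end of IL1B. Their widths were 472, 839, 349 and 315 bp, and 85.2%, 58.6%, 94.6% and 97.4% of nuclear peaks were at least as wide. The median was 969 bp over all nuclear peaks and 706 bp over those more than 1500 bp from any TSS. The peak of 839 bp was thus wider than the median of such distant peaks, and the others were narrower. The central 200 bases of the 4 are shown because no promoter peak was listed for either ligand and each of these windows held an ETS core. They are given on the plus strand of GRCh37, with the ETS core in capitals, at chr2:113563275-113563474, chr2:113569399-113569598, chr2:113571929-113572128 and chr2:113573571-113573770.
Peak 1: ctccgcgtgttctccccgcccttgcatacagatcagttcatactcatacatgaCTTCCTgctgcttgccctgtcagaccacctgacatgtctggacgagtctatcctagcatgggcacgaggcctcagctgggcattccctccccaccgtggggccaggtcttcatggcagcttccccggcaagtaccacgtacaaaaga
Peak 2: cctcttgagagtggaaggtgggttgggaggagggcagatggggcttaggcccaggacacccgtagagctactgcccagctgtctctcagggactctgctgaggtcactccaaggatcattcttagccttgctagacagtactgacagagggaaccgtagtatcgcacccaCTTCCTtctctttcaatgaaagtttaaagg
Peak 3: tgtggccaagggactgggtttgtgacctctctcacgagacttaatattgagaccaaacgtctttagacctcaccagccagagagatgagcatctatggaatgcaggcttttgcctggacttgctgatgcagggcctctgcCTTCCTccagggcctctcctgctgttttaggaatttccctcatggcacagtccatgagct
Peak 4: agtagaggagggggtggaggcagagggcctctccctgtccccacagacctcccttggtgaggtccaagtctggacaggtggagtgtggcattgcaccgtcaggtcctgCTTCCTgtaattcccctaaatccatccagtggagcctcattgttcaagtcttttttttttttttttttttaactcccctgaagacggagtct
Each window of 200 bases held exactly 1 core, in the form AGGAAG on the minus strand, and none held an AP-1 site. Within its whole borders, however, peak 4 held 2 AP-1 sites. Peaks 2 and 3 held 2 and 1 matches to the NF-kB consensus within theirs. Of all nuclear peaks, 44% had an ETS core in the central 200 bp, and of those over 1500 bp from any TSS 52.6%.

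On the other side of IL1B, 7 peaks lay between IL1B and IL37, a family member known to dampen inflammation. Of these, 6 formed a run at chr2:113625136-113639103, a span of 14 kb, in which neighboring midpoints were at most 10 kb apart. In the central 600 bp the run held ETS cores in 5 of its 6 peaks and AP-1 sites in 4. In windows of this size, the 4 peaks between IL1A and IL1B held ETS cores in 4 and AP-1 sites in 1. The nearest canonical coding TSS was that of IL1B for 3 peaks, with midpoints 31070, 31785 and 32771 bp upstream, and that of IL37 for the others. The widest peak of the run measured 1353 bp and the narrowest 301 bp. The genome held 156 runs of 6 or more peaks by the same definition. Of the 59 peaks, 15 lay in runs of 4 or more, in the 2 groups beside IL1B and at CSF2, and 12.4% of all nuclear peaks lay in such runs.

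IL1RN, the gene of the interleukin 1 receptor antagonist, was the only one of the 3 interleukin 1 genes studied with a peak at a TSS. The peak lay not at the canonical TSS, from which the nearest midpoint was 6278 bp away, but at a group of start sites further upstream in the gene. It spanned chr2:113875059-113875932 (874 bp), and its midpoint was 21 bp from one of these TSSs. Another peak of 1132 bp lay directly before it, with the midpoint 1104 bp from the nearest IL1RN TSS. An intronic peak of 375 bp lay 4983 bp from the nearest IL1RN TSS, and a peak of 325 bp lay at the end of the gene. In all, 4 of its 12 peaks were in the gene body, and 5 had its canonical TSS as the nearest. Another 5 peaks were nearest to PSD4, an exchange factor gene for ARF6, and 2 to IL1F10, a member of the interleukin 1 family with a peak 171 bp from one of its TSSs.

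The remaining genes of the cluster had between 5 and 12 peaks within 100 kb, 12 at IL37, 9 at IL36RN and IL1F10, 8 at IL36G and IL36B and 5 at IL36A. Of these 6 genes only IL1F10 had a peak at a TSS. A stretch of 136130 bp without any peak covered IL36G, IL36A, IL36B and IL36RN, so the peaks gathered at the ends of the cluster, around IL1A and IL1B on one side and IL1RN on the other.

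IL6, the pleiotropic cytokine of the acute phase response, had 3 peaks. A peak of 787 bp at chr7:22766549-22767335 covered the canonical TSS, with its midpoint 123 bp downstream. A narrower peak of 486 bp lay 742 bp upstream of this TSS, inside the span of longer IL6 transcripts, and 574 bp from the TSS of one of these. The third peak lay 95562 bp downstream, at the promoter of TOMM7, a gene of the mitochondrial import machinery, and had no closer link to IL6. The bases before the canonical TSS are shown because they lay in this promoter peak and held no ETS core themselves. They lie at chr7:22766619-22766765 on the plus strand, ending where the nearest annotated UTR begins.
IL6: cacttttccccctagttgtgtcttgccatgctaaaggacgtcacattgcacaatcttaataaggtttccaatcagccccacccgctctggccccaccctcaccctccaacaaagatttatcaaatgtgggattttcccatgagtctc
Neither form of the ETS site was found in the 200 bases, and the NF-kB consensus began 73 bases before the TSS. The central 600 bp of the promoter peak held 1 ETS core, and its whole length held 2. The neighboring peak, narrower than this window, held none within its own borders.

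LIF, a cytokine of the interleukin 6 family that maintains stem cells and acts on stroma and muscle, had the most peaks of the 10 genes. At least 16 peaks were found at 4.23% of all protein-coding genes. The promoter peak was 1827 bp wide, covered the TSS and had its midpoint 250 bp inside the gene. Over its whole length it held 8 ETS cores. Upstream peaks of 1567 bp and 1199 bp followed at 4212 and 9655 bp, with 5 and 3 ETS cores in the central 600 bp. Over all annotated transcripts, a TSS of OSM was nearer to the peak of 1199 bp, at 9404 bp. Downstream, 6 peaks lay between 20161 and 50112 bp from the canonical TSS and had it as the nearest canonical coding one. Over all annotated transcripts, a TSS of ENSG00000225676 or ENSG00000289846 was nearer to each of these 6, at 175 to 10548 bp. The peak 39739 bp from the LIF TSS lay 175 bp from a TSS of ENSG00000225676, and so at a promoter. By canonical coding TSS, LIF was the nearest gene of 9 of the 16. The other 7 peaks were nearest to CASTOR1 (3), which encodes an arginine sensor of the mTORC1 pathway, to ENSG00000248751 (2) and to TBC1D10A (2), a regulator of Rab GTPases. LIF lies on a chromosome with many peaks, 20.7 per Mb beside 9.43 in the nuclear genome, and its window held 77.6 per Mb and 6 other protein-coding genes. OSM, the neighboring gene for oncostatin M, had 17 peaks within 100 kb, and all 16 peaks of LIF were among them.

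CSF2 had 5 peaks, none of them upstream of the gene apart from the part of the first that reached over the TSS. This peak at chr5:131408819-131411429 was 2611 bp wide, which 4.56% of nuclear peaks equaled or exceeded, and its midpoint lay 642 bp inside a gene of 2382 bp. It held no ETS core in the central 600 bp and 11 over its whole length. The other 4 peaks lay 4840, 13057, 21156 and 29863 bp downstream of the TSS, 853 to 1435 bp wide, with 1, 4, 3 and 2 ETS cores in the central 600 bp. All 5 had CSF2 as the nearest coding gene, and all 5 were also within 100 kb of IL3, the neighboring cytokine gene. The promoter is shown because it lay under the broad peak and held an ETS core close to the TSS, at chr5:131409282-131409481 on the plus strand.
CSF2: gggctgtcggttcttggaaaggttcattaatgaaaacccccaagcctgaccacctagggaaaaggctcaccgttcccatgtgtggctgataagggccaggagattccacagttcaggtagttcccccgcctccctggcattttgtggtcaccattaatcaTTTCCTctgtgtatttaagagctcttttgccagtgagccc
The core began 40 bases before the TSS. The CSF2 window held 24.7 peaks per Mb, beside 7.03 on chromosome 5. This does not set CSF2 apart, since at least 5 peaks were found at 47% of all protein-coding genes. The windows of all 10 genes were denser than their chromosomes, also that of CXCL8 with 1 peak (4.92 beside 3.26 per Mb).

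**Figure D4:**
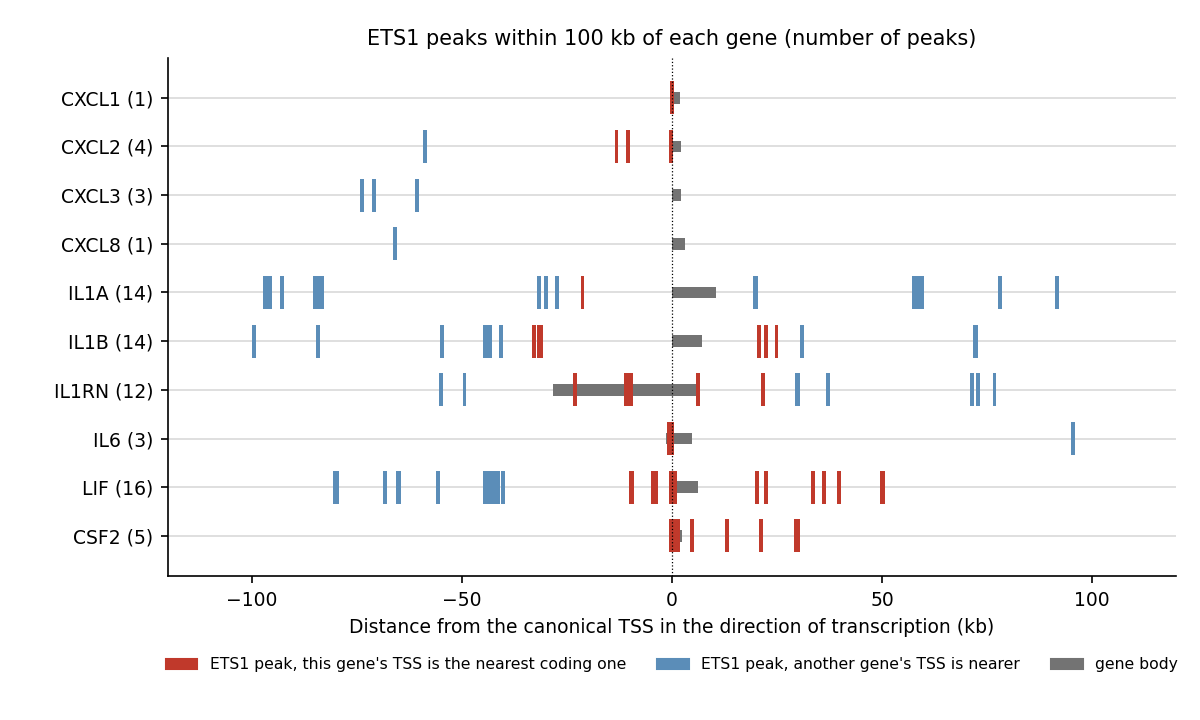
ETS1 peaks in the body or within 100 kb of each of the 10 genes, by distance from the canonical TSS in kb with transcription to the right, and the number of peaks in brackets. Red ticks are peaks whose nearest canonical coding TSS is that of the gene, blue ticks are nearer to another gene, and narrow peaks are drawn wider than to scale. Red ticks are absent at CXCL3 and CXCL8, and all 5 ticks of CSF2 are red.

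Many of the 59 peaks were closer to other genes. Of the 10 genes, 8 had the nearest canonical coding TSS to at least 1 peak, beside 62.6% of the 19863 genes with such a TSS, and CXCL3 and CXCL8 did not. For 32 of the 59 peaks the nearest canonical coding TSS was that of one of the 10 genes, among them 9 at LIF, 6 at IL1B, 5 at IL1RN, 5 at CSF2, 3 at CXCL2, 2 at IL6, 1 at CXCL1 and 1 at IL1A. IL37 was the nearest gene for 6 peaks, PSD4 for 5, and NT5DC4 and CASTOR1 for 3 each. The position of a peak does not show which gene it acts on, and expression was not part of these data.

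The 59 peaks lay away from start sites more often than the list as a whole. Of the 59, 38 (64.4%, 95% Wilson interval 51.7 to 75.4%) were over 1500 bp from any annotated TSS, beside 48.2% of all nuclear peaks. Distal intergenic peaks made up 29 of them (49.2%, beside 19.1% of all) and intragenic peaks 9 (15.3%, beside 29.1%), and 15 (25.4%, beside 43.3%) lay within 500 bp of a TSS. Of those 15 only 5 lay at a TSS of one of the 10 genes. In the IL1 cluster with its flanks, 22 of 29 peaks were over 1500 bp from any TSS. The counts were 10 of 16 at LIF, 3 of 5 at CSF2, 3 of 6 in the CXCL cluster with its flanks, and 0 of 3 at IL6. The IL1 cluster thus gave 22 of the 38, and the share without this cluster was not computed. The interval treats peaks as independent, whereas neighboring peaks of one locus are not, and it covers counting error only.

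The ETS core was found in the central 600 bp of 49 of the 59 peaks (83.1%, interval 71.5 to 90.5%), beside 79.2% of all nuclear peaks, a share that lay within the interval. It was present in 4 of 6 peaks at the CXCL cluster, 24 of 29 at the IL1 cluster, 3 of 3 at IL6, 4 of 5 at CSF2 and 14 of 16 at LIF. CCGGAA was found in 12 of the 59 (20.3%, interval 12 to 32.3%), beside 26% of all. An AP-1 site accompanied 25 peaks (42.4%, interval 30.6 to 55.1%), beside 30.9% of all, and among these were 14 of the 29 at the IL1 cluster, 7 of 16 at LIF, 3 of 5 at CSF2, 1 of 6 at the CXCL cluster and 0 of 3 at IL6. Peaks over 1500 bp from a TSS held AP-1 sites more often in general. Of the 38 such peaks at the 10 genes 22 (57.9%, interval 42.2 to 72.1%) had one, beside 47.8% of the 12982 such peaks in all, which lay within the interval. The NF-kB consensus was found in 12 peaks (20.3%, interval 12 to 32.3%), beside 14% of all. Among the 32 peaks nearest to one of the 10 genes it was found in 9 (28.1%, interval 15.6 to 45.4%), an interval above the share of all peaks. These 9 peaks were not independent. They included the similar promoters of CXCL1 and CXCL2 and more than 1 peak each at IL1B and LIF. The interval of the 59 peaks contained the share of all peaks, so no excess of the NF-kB consensus is read from the 32. The window of 600 bp reaches beyond narrow peaks. Within the borders of the peaks the ETS core was found in 52 of the 59 (88.1%) and in 90% of all. The median width was 806 bp for the 59 peaks and 969 bp for all, and the median GC content of the central 600 bp was 53.2% and 57.8%.

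**Figure D5:**
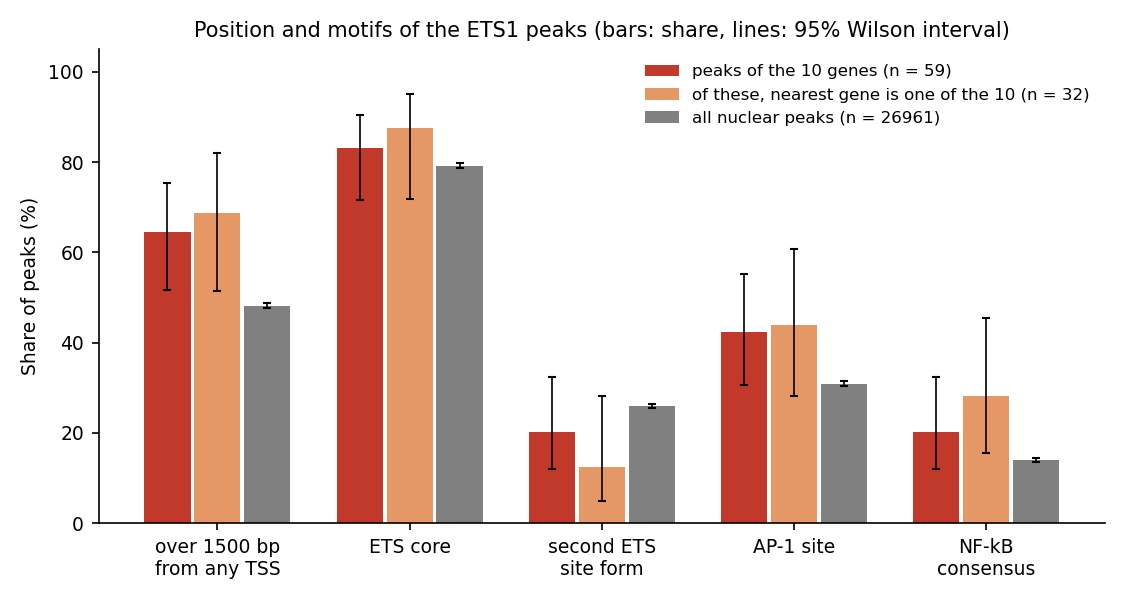
Share of peaks (vertical axis, percent) over 1500 bp from any TSS or with a given motif in the central 600 bp, for the 59 peaks of the 10 genes, the 32 of these whose nearest coding gene is one of the 10, and all 26961 nuclear peaks. Lines are 95% Wilson intervals and the second ETS site form is CCGGAA. The interval of the 59 peaks lies above the value of all peaks for distance, where 22 of the 38 distant peaks are of the IL1 cluster with its flanks. It contains the value of all peaks for the motifs, for the AP-1 site near its lower end (30.6 to 55.1% beside 30.9%). The interval of the 32 peaks also lies above the value of all peaks for the NF-kB consensus (15.6 to 45.4% beside 14%). It treats similar promoters and peaks of one locus as independent, so no excess is read from it.

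Related genes gave a frame for these counts. Of all protein-coding genes, 87.6% had a peak within 100 kb and 53.1% had one within 500 bp of a TSS. Among 7 other genes of the interleukin 6 family and the colony stimulating factors, all 7 had a peak within 100 kb, with a median of 15. IL11, OSM and CLCF1 had 17 each, and peaks at a TSS were found at CLCF1, CTF1 and CSF1. Among 12 other CXC chemokines, 8 had a peak within 100 kb, with a median of 1. CXCL16 had the most (9) and was the only one with a peak at a TSS, followed by CXCL14 (5) and, with 2 each, CXCL9, CXCL10 and CXCL11. The 8 other members of the interleukin 1 family had a median of 8, with a highest count of 12 at IL37, and IL1F10 alone had a peak at a TSS. Of 8 further cytokines and chemokines of epithelia 7 had a peak within 100 kb and none at a TSS, with 11 at TNF and 7 at CCL5 and IL19. These lists are not independent of the 10 genes, since all 12 peaks of IL37 were among those of IL1B, all 9 of IL1F10 among those of IL1RN, and OSM shared 16 with LIF.

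Of 11 genes for the receptors of these factors, 10 had a peak within 100 kb, with a median of 3, and 5 had a peak at a TSS. The shares over all protein-coding genes were 87.6% and 53.1%. These were IL1RAP, the accessory chain of the interleukin 1 receptor, IL6R, IL6ST (gp130), LIFR and OSMR. The midpoints lay 145, 297, 54, 111 and 248 bp from their canonical TSSs in this order. IL6R had the most peaks (12), followed by IL1R1 (5) and by IL1R2 and IL6ST (4 each). Of 11 cytokine genes used mainly by lymphocytes, 9 had a peak within 100 kb, with a median of 1 and a highest count of 6 at IL5. IL5 alone had a peak at an annotated TSS, while the peak nearest to its canonical TSS was 13675 bp away. IL10, IL12B, IL17A and IL21 followed with 2 each.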

How the data were processed

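ChIP-Seq was performed by the authors on SCC25 chromatin with 2 precipitations using the C20 antibody and 1 using 501A. Per the study's methods, single-end reads of 50 bases were mapped to hg19 keeping those with a single locus, peaks were called with MACS2 against a merged input, and the 3 samples were combined with the IDR procedure. The submitters' processing notes name Bowtie 1.1.1 and SAMtools 1.3. The deposited file gives peak positions (chromosome, start and end) of 26970 peaks pooled over the samples. It holds no count or score, so the reads behind a peak cannot be read from it, no replicate could be left out and no test was made. The study's methods give sequencing depth only as a range over samples, which is not used here. 9 mitochondrial peaks were left out.

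Peaks were assigned by midpoint to genes of GENCODE release 44 on GRCh37 with Python 3.11.15, numpy 2.4.6, scipy 1.17.1, numba 0.67.0 and Biopython 1.88 (promoter alignments). Coordinates count from 1. The canonical TSS is that of the Ensembl canonical transcript. Motifs were searched on both strands of the 600 bp around each midpoint. Genome windows of cluster length were laid end to end, leaving out those more than 50% unknown. Counting and motif functions recovered all 934 planted cases in simulated data. The 10 genes, the gene lists and the alternatives were chosen with earlier results of these data known. The genes named were all 10, the other genes of both clusters, the nearest gene of a peak, and from each other list those with most peaks or with a peak at a TSS. The alternatives varied the window, the peak assignment, the TSS set, the motif window and the part of the list used.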

Additional observations from a re-analysis of the deposited data

How the results depend on the processing

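Of 31 alternative settings over 7 results, 19 left the value within 1.5 times the reported count or inside its interval. The 59 distinct peaks became 14 within 10 kb, 8 in gene bodies alone, 32 when only peaks nearest to a TSS of the 10 genes counted, and 22 among the first 13485 peaks of the list. Genes with a peak fell from 10 to 4 with gene bodies alone. Genes with a peak within 500 bp of a TSS fell from 5 to 0 among the first 13485 peaks. The CXCL cluster count of 1 became 6 with 100 kb on each side, 0 among the first 13485 peaks and, by an alternative chosen after seeing the data, 2 when overlap counted. The IL1 cluster count of 19 became 29 with 100 kb on each side and 8 among the first 13485 peaks. The share of peaks with the ETS core was 52.5% in a window of 200 bp. Using fewer peaks or a smaller window lowers a count by construction. Leaving out the LIF locus, also chosen after seeing the data, moved neither share beyond its interval. The IL1 cluster, which held most of the distant peaks, was not left out. No paired analysis was possible because the list holds no value per sample. The list gives no signal at unlisted sites, so a promoter without a peak, as at CXCL3 or CXCL8, cannot be read as unbound.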

Other observations

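The deposited list is not in order of position, and what orders it is not given in the sources used here. Its first 13485 peaks had a median width of 1131 bp and the remaining 13485 one of 800 bp. The peaks of CSF2 stood early in it, with the broad peak over the gene at place 1005 of 26970 and 4 of its 5 peaks among the first 13485. The peaks over the TSSs of CXCL1, CXCL2, IL1RN, IL6 and LIF stood at places 19066, 24092, 15829, 14147 and 24366, all in the later part. Of the 59 peaks at the 10 genes, 22 were among the first 13485. So were 13477 of all 26961 nuclear peaks and 5609 of the 12982 over 1500 bp from any TSS. The share for promoter peaks in general was not computed, so the places of the 5 TSS peaks are only described.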
